A study of Mus musculus with 20 samples.

Results

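The response of the kidney (kidney by the labels, cortex by the study's methods) to a MAT2A inhibitor was measured as 1 effect averaged over 2 genotypes, by setting the 10 libraries titled with the inhibitor against the 10 titled placebo, which are all 20 libraries of the series. The contrast was the mean of the inhibitor effect in Sweet Pee (SP) mice and that in wild-type (WT) mice, so that each genotype had the same weight. The groups were SP MAT2Ai, SP placebo, WT MAT2Ai and WT placebo, with 5 libraries each. All mice were male C3H/HeJ, were 10 weeks old when a high-fat diet (HFD) began, had 8 weeks of HFD and then 8 weeks of intraperitoneal injections 3 times a week, either of the inhibitor at 10 mg/kg (MAT2Ai) or of DMSO (placebo). The inhibitor is the (E)-4-(2-chloro-6-fluorostyryl) derivative of N-methylaniline. SP mice are homozygous for a missense mutation of *Slc5a2*, the gene of the glucose cotransporter SGLT2, and the mutation is present in every cell of the animal. No group in these files was kept on a normal diet, so the diet is shared by every library and its effect is not part of the contrast. The labels do not say whether cages or litters were shared, and p-values therefore measure the spread between these libraries.

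MAT2A joins methionine to ATP and so makes S-adenosylmethionine (SAM), the methyl donor for histones, DNA, RNA and small molecules in nearly every cell outside the liver. SAM is used up in methylation, and the homocysteine that is left is turned back into methionine, which closes the methionine cycle. The transcription factor p53, on which much of the account below turns, is held low by the ubiquitin ligase MDM2. When it is released from MDM2 it raises genes that stop the cell cycle, genes that lower the threshold of cell death and, as a brake on itself, *Mdm2*. The question put to the averaged contrast was which genes moved with the inhibitor in the same way whether or not SGLT2 was functional.

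Libraries held between 53296824 and 79339949 counts in genes, and 16152 of 43430 genes had enough counts to be tested. Proximal tubule markers (*Slc34a1*, *Lrp2*, *Slc22a6*, *Slc5a12*, *Slc7a13* and *Slco1a1*) summed to between 5858 and 11380 CPM (counts scaled to the size of each library) in MAT2Ai libraries and to between 9866 and 11910 CPM in placebo libraries. Some libraries stood apart. *Slc5a2* was at 43.5 to 86.0 CPM in SP MAT2Ai libraries but at 241 and 282 CPM in the libraries labelled SP placebo 1 and SP placebo 2, against 40.3 to 70.1 CPM in the other 3 SP placebo libraries and 229 to 518 CPM in WT libraries. The libraries labelled SP placebo 1 and 2 thus lay within the WT range. Without them only 4 of the 36 genes called below were still called. Single-gene values use all 20 libraries unless stated, and values without these 2 libraries are given for some genes only. On the first principal component, which carried 20.5% of the variance, WT MAT2Ai 2 lay at 89.7, WT MAT2Ai 3 at 21.8 and WT MAT2Ai 4 at 19.4, against -22.9 to 6.0 in all the other libraries.

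The averaged contrast called 36 genes, 0.223% of those tested, which passed an adjusted p of 0.05 (edgeR's quasi-likelihood test, adjusted by Benjamini and Hochberg over all tested genes). Of these, 30 were higher with MAT2Ai (0.186%) and 6 were lower (0.0371%). At an unadjusted p of 0.05, 2372 genes passed (14.7%). In SP mice alone 3 genes (0.0186%) passed, *Ly6e*, *Psrc1* and *Dscaml1*, all higher with MAT2Ai. In WT mice alone no gene passed with edgeR's quasi-likelihood test, although 2540 had an unadjusted p under 0.05 (15.7%, against 5.92% in SP), and DESeq2 called 201 genes there, limma-voom 2 and edgeR's likelihood ratio test 178. All but 3 of the called genes passed only when both genotypes were put together.

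Of the 30 genes that rose, 11 stand on the 3 lists of p53 target genes, and the letters p53 binds are shown first for that reason. The p53 half-site is a stretch to which a pair of p53 molecules binds, and a full site is made of 2 close together. It was searched for, with the AP-1 site TGANTCA, in RefSeq promoter windows from 250 bases before to 50 bases after each annotated start (GRCm38.p6, the build of the files). Both patterns read the same on either strand. Of the 30 genes that rose, 23 had a window, and 7 of these 23 (30.4%) held a half-site, against 9.55% of all 27025 genes with a window and 8.32% of the 11600 tested genes with one. The 5 windowed genes that fell held none. A pair of half-sites with 0 to 13 bases between them stood in only 1 of the 23 genes, *Cdkn1a*, and in 20 of all 27025 genes (0.074%). TGANTCA stood in none of the 23 genes and in 8.97% of all genes, so no half-site overlapped it. Among the 5 genes that fell it stood in *Met*. These are matches of letters and not measured binding, and many known p53 sites lie in first introns, which the windows do not reach.

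The stretches around the half-sites of 6 risen genes are given 5′ to 3′ on the gene's strand, with the half-sites in capitals. Cdkn1a lies at chr17:29090896-29090947 on the plus strand, and its first half-site begins 73 bases before the start. Mdm2 lies at chr10:117710925-117710954 on the minus strand, 186 bases before the start. Ccng1 lies at chr11:40755452-40755481 on the minus strand, 185 bases before the start. Aen lies at chr7:78895927-78895956 on the plus strand, 121 bases before the start of 1 of its windows and at base 11 of the transcript of the other. Gtse1 lies at chr15:85859945-85859974 on the plus strand, at base 10 of the transcript. Exoc4 lies at chr6:33248915-33248944 on the plus strand, 203 bases before the start.
Cdkn1a: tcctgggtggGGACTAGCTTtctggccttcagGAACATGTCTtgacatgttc
Mdm2: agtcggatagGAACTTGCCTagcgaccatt
Ccng1: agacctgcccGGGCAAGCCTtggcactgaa
Aen: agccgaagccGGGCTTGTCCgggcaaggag
Gtse1: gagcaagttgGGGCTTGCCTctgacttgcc
Exoc4: tttattgtccAGGCATGCCCgggaccggca

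*Cdkn1a* encodes p21, the inhibitor of cyclin-dependent kinases through which p53 halts the cycle. It was at 18.9, 17.2, 22.5, 9.20 and 9.78 CPM in SP MAT2Ai libraries, against 6.23, 3.61, 4.06, 2.94 and 5.49 CPM in SP placebo libraries. Among WT mice it was at 19.5, 237, 17.7, 31.1 and 11.7 CPM with MAT2Ai, against 5.33, 5.62, 7.84, 4.64 and 5.52 CPM with placebo. Each of the 10 MAT2Ai libraries was above each of the 10 placebo libraries, and WT MAT2Ai 2 was far above all others. The averaged log2 fold change was 2.62 ± 0.45 (SE, adjusted p = 0.012), with 1.79 in SP and 3.45 in WT. Without WT MAT2Ai 2 it was 1.78 (adjusted p = 0.000442), a smaller change with a smaller p, and without SP placebo 1 and 2 it was 2.67 (adjusted p = 0.0896).

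*Ccng1*, cyclin G1, which binds the phosphatase PP2A and is a long-known p53 target, was at 489, 370, 330, 248 and 302 CPM in SP MAT2Ai libraries, against 167, 197, 198, 206 and 196 CPM in SP placebo libraries. Its WT values were 452, 246, 279, 228 and 270 CPM with MAT2Ai, against 202, 185, 186, 194 and 204 CPM with placebo. The 2 treatments did not overlap in either genotype. The averaged log2 fold change was 0.73 ± 0.12 (adjusted p = 0.00682), and 0.75 without WT MAT2Ai 2 (adjusted p = 0.00467). The other 2 arrest genes called were of low abundance. *Psrc1*, a protein of the mitotic spindle, was at 0.284 to 1.46 CPM in MAT2Ai libraries (median 0.814), against 0.0835 to 0.303 CPM in placebo libraries (median 0.190), and 9 of 10 MAT2Ai libraries were above every placebo library. Its averaged log2 fold change of 2.23 ± 0.28 had an adjusted p of 0.00128, and it was 2.46 without SP placebo 1 and 2 (adjusted p = 0.0089). *Gtse1*, a microtubule-binding protein of the S and G2 phases, was at 0.243 to 4.61 CPM with MAT2Ai (median 0.626), against 0.0808 to 0.328 CPM with placebo (median 0.249). Its log2 fold change of 2.13 ± 0.40 (adjusted p = 0.0262) was 1.57 without WT MAT2Ai 2 (adjusted p = 0.00957) and 2.05 without SP placebo 1 and 2 (adjusted p = 0.16), and *Gtse1* was called in 10 of the 20 fits that left out 1 library.

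Of the 19 tested p53 targets of cell death and survival, 4 rose. *Phlda3* encodes a small protein that keeps the kinase AKT from the membrane. It was at 10.7, 8.44, 4.97, 4.60 and 4.38 CPM in SP MAT2Ai libraries, against 1.69, 2.57, 2.34, 1.49 and 2.92 CPM in SP placebo libraries. In WT the values were 9.36, 9.91, 7.07, 4.74 and 4.16 CPM with MAT2Ai, against 3.07, 3.39, 2.26, 2.61 and 2.47 CPM with placebo. Every MAT2Ai library was above every placebo library, and the averaged log2 fold change was 1.47 ± 0.20 (adjusted p = 0.00206). *Eda2r*, a receptor of the tumor necrosis factor (TNF) family for ectodysplasin, was at 3.28, 2.54, 1.63, 1.13 and 1.63 CPM in SP MAT2Ai libraries, against 0.286, 0.228, 0.594, 0.277 and 0.570 CPM in SP placebo libraries. With MAT2Ai in WT it was at 3.60, 2.28, 1.14, 0.710 and 0.818 CPM, against 0.360, 0.417, 0.275, 0.366 and 0.594 CPM with placebo. These 20 values did not overlap between treatments either, and the averaged log2 fold change was 2.23 ± 0.31 (adjusted p = 0.00206). *Tnfrsf10b*, the TRAIL receptor, was at 1.62 to 3.18 CPM with MAT2Ai (median 2.27), against 1.03 to 1.49 CPM with placebo (median 1.27), again with no overlap, and its log2 fold change was 0.90 ± 0.14 (adjusted p = 0.00682). *Aen*, a nuclease that acts in apoptosis, was at 14.1 to 28.8 CPM with MAT2Ai (median 19.1), against 11.7 to 15.2 CPM with placebo (median 12.7), where 8 of 10 MAT2Ai libraries were above every placebo library. Its log2 fold change was 0.62 ± 0.11 (adjusted p = 0.0138).

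Of the 19 tested genes of p53 feedback and repair, 3 rose. *Mdm2* was at 48.8, 45.4, 41.3, 40.3 and 39.0 CPM in SP MAT2Ai libraries, against 32.5, 31.5, 32.9, 32.4 and 29.9 CPM in SP placebo libraries. The level in WT was 48.7, 48.0, 41.2, 33.9 and 37.2 CPM with MAT2Ai, against 30.4, 32.8, 31.6, 34.5 and 34.8 CPM with placebo. Only WT MAT2Ai 4 lay within the placebo range. The log2 fold change was 0.39 ± 0.06 (adjusted p = 0.00609), which is small beside that of *Cdkn1a* but was measured with a small error. *Mgmt*, which takes alkyl groups off guanine in DNA, was at 6.51 to 13.02 CPM with MAT2Ai (median 8.85), against 4.43 to 8.45 CPM with placebo (median 5.69). Its log2 fold change was 0.63 ± 0.12 (adjusted p = 0.0395). *Ephx1*, the microsomal epoxide hydrolase, is a target of both p53 and the oxidant-sensing factor NRF2. It was at 34.6, 38.1, 35.2, 33.8 and 28.0 CPM in SP MAT2Ai libraries, against 21.3, 22.6, 23.3, 23.2 and 25.3 CPM in SP placebo libraries, and at 47.7, 33.2, 53.2, 29.2 and 32.1 CPM in WT MAT2Ai libraries, against 24.04, 26.4, 22.4, 25.8 and 21.4 CPM in WT placebo libraries. No placebo library reached the lowest MAT2Ai library, and the log2 fold change was 0.63 ± 0.09 (adjusted p = 0.00479).

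**Figure D1:**
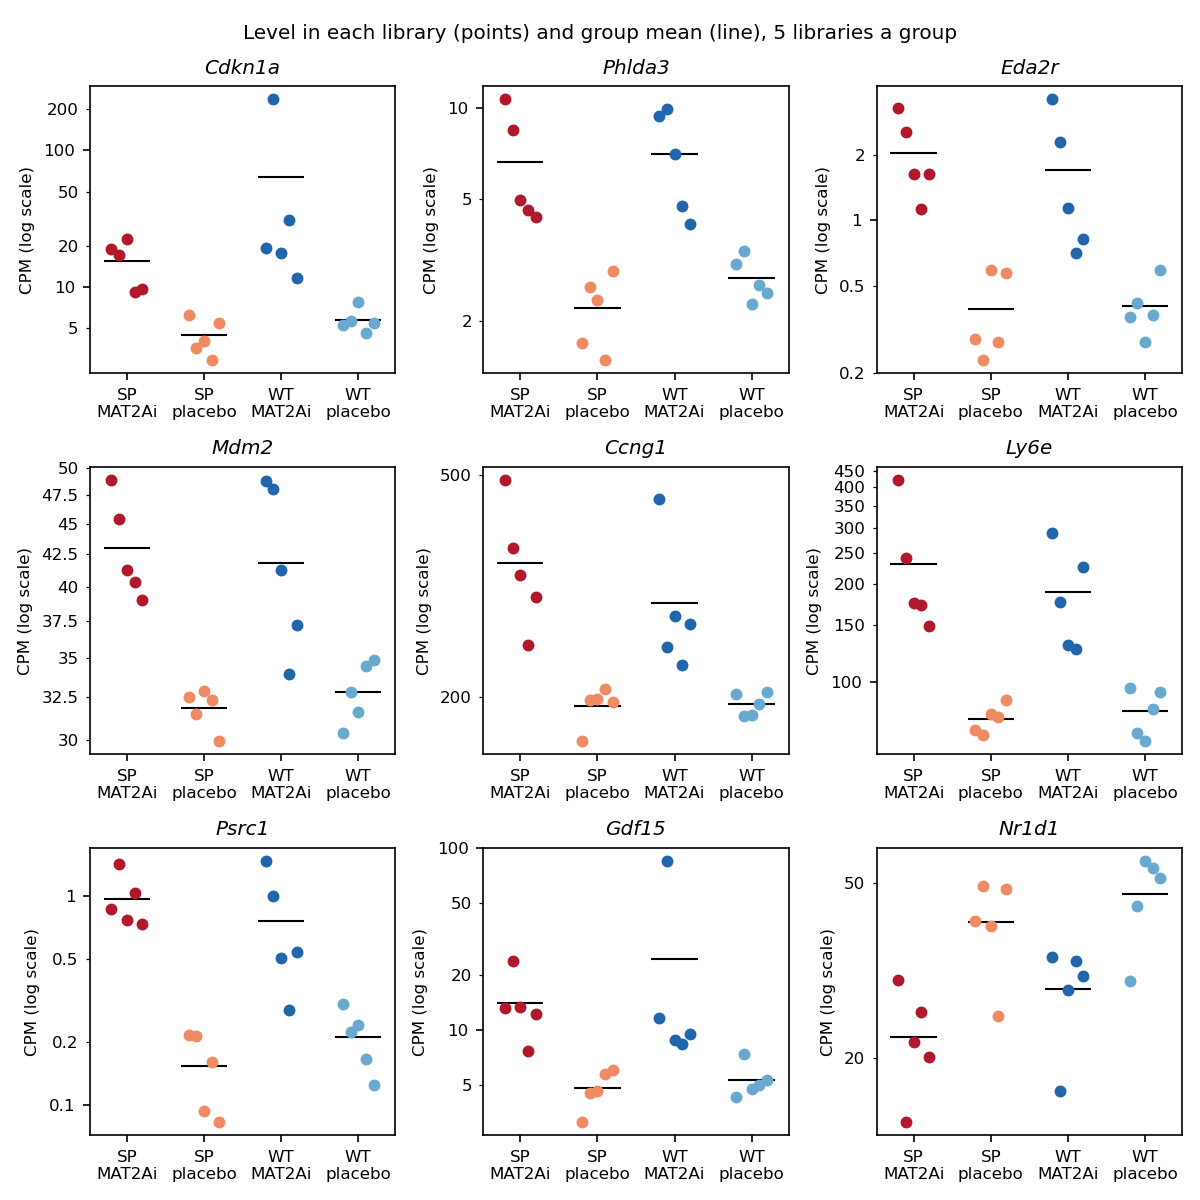
CPM (log scale) of 9 called genes in each library (points), with the group mean as a line, for SP MAT2Ai, SP placebo, WT MAT2Ai and WT placebo (5 libraries each). *Phlda3*, *Eda2r*, *Ccng1*, *Ly6e*, *Gdf15* and *Cdkn1a* have no overlap between MAT2Ai and placebo in either genotype, while 1 point, WT MAT2Ai 2, lies at 237 CPM for *Cdkn1a* and 85.0 CPM for *Gdf15*.

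The smallest p-value belonged to a gene outside the p53 lists. *Ly6e*, a lipid-anchored surface protein that interferon induces, was at 421, 242, 175, 172.5 and 149 CPM in SP MAT2Ai libraries, against 71.0, 68.3, 79.3, 77.9 and 88.0 CPM in SP placebo libraries. WT libraries had it at 288, 177, 130, 127 and 226 CPM with MAT2Ai, against 95.5, 69.6, 65.5, 82.4 and 92.7 CPM with placebo. The groups did not overlap, and the averaged log2 fold change was 1.41 ± 0.18 (adjusted p = 0.00128), with 1.59 in SP and 1.22 in WT. *Ly6a*, the related stem cell antigen Sca-1, lies within the same cluster on chromosome 15. It was at 523 to 1162 CPM with MAT2Ai (median 628.5), against 367 to 518 CPM with placebo (median 465), also without overlap, and its log2 fold change was 0.65 ± 0.12 (adjusted p = 0.0159). Of 28 tested interferon-response genes, *Ly6e* was the only 1 called, and 26 had a positive value.

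*Gdf15*, a stress hormone of the TGF-β superfamily that lowers appetite through the hindbrain, was at 13.3, 24.1, 13.4, 7.64 and 12.3 CPM in SP MAT2Ai libraries, against 3.13, 4.52, 4.61, 5.76 and 6.01 CPM in SP placebo libraries. In the WT groups it was at 11.6, 85.0, 8.80, 8.35 and 9.52 CPM with MAT2Ai, against 4.30, 7.41, 4.72, 4.99 and 5.31 CPM with placebo. All 10 MAT2Ai libraries were above all 10 placebo libraries. The averaged log2 fold change was 1.88 ± 0.38 (adjusted p = 0.0408), and without WT MAT2Ai 2 it was 1.19 (adjusted p = 0.0019), a smaller change that was still called. Without SP placebo 1 and 2 it was 1.79 (adjusted p = 0.219), and *Gdf15* was called in 6 of the 20 fits that left out 1 library. *Sulf2*, which trims sulfate from heparan sulfate outside the cell, was at 22.7 to 45.7 CPM with MAT2Ai (median 27.6), against 16.4 to 21.1 CPM with placebo (median 18.1), with no overlap and a log2 fold change of 0.66 ± 0.10 (adjusted p = 0.00479). *Thpo*, thrombopoietin, was at 7.85 to 11.3 CPM with MAT2Ai, against 5.43 to 7.91 CPM with placebo (log2 fold change 0.43 ± 0.08, adjusted p = 0.0232).

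*Dscaml1*, a scarce transcript of an adhesion molecule of the immunoglobulin superfamily best known from neurons, was at 0.910, 0.365, 0.617, 0.244 and 0.472 CPM in SP MAT2Ai libraries, against 0.0272, 0.0305, 0.0156, 0.0437 and 0.0695 CPM in SP placebo libraries. Among WT mice it was at 0.567, 0.0621, 0.130, 0.142 and 0.174 CPM with MAT2Ai, against 0.0948, 0.104, 0.0970, 0.0499 and 0.0469 CPM with placebo. The SP groups did not overlap, whereas 1 WT MAT2Ai library lay within the WT placebo range. The averaged log2 fold change was 2.58 ± 0.39 (adjusted p = 0.00479), with 3.72 in SP and 1.45 in WT.

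The other genes that rose mostly changed by less than 1 on the log2 scale. *Aaas*, a nuclear pore protein, was at 10.8 to 15.6 CPM with MAT2Ai, against 8.22 to 10.3 CPM with placebo, without overlap (log2 fold change 0.45 ± 0.07, adjusted p = 0.00552). *Exoc4*, a subunit of the exocyst that tethers secretory vesicles, changed by 0.40 ± 0.06 (log2) (adjusted p = 0.00721), and *Rhoq*, a small GTPase of membrane traffic, one of 0.41 ± 0.07 (adjusted p = 0.012). *Slc19a2*, a thiamine transporter, was at 12.2 to 19.0 CPM with MAT2Ai, against 9.67 to 13.9 CPM with placebo (0.41 ± 0.08, adjusted p = 0.0423). *Map3k20*, the kinase ZAK that senses stalled ribosomes, changed by 0.48 ± 0.10 (log2) (adjusted p = 0.0408), whereas *Eloa*, elongin A of transcript elongation, had the smallest of all called genes at 0.26 ± 0.05 (adjusted p = 0.0408). *Ces2e*, a carboxylesterase, was at 7.07 to 29.4 CPM with MAT2Ai, against 4.54 to 8.38 CPM with placebo, with its 2 highest values in WT MAT2Ai 1 and 2 (1.01 ± 0.20, adjusted p = 0.0408). *Snhg15*, the host RNA of a small nucleolar RNA, changed by 0.94 ± 0.18 (log2) (adjusted p = 0.024), the calpain protease gene *Capn5* a change of 0.40 ± 0.08 and the nuclear protein gene *Csrnp2* one of 0.50 ± 0.10 (adjusted p = 0.0408 for both). *Ces2e* has near copies in its family, so its count is less certain. *Sulf2*, *Rhoq*, *Thpo*, *Dscaml1*, *Exoc4*, *Capn5*, *Eloa*, *Cdkn1a* and *Tmem178b* each overlap an annotated gene on the opposite strand. The libraries were made with a directional kit, so this matters only if the counting ignored strand. *Ephx1*, *Snhg15*, *Mgmt*, *Map3k20*, *Exoc4*, *Rhoq*, *Capn5*, *Eloa* and *Tmem178b* each overlap an annotated gene on the same strand, so their counts are less certain. The remaining pair were *1700007K13Rik* (1.62 ± 0.28, adjusted p = 0.012) and *Gm26917*, annotated as a long noncoding RNA (1.12 ± 0.23, adjusted p = 0.0408). *Gm26917* varied widely, at 30.3 to 116 CPM with MAT2Ai (highest in WT MAT2Ai 4), against 12.5 to 37.3 CPM with placebo. It was called in only 7 of the 20 fits that left out 1 library.

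The 6 genes that fell are given next. *Nr1d1* encodes REV-ERBα, a repressor of the circadian clock. It was at 30.1, 14.3, 21.7, 25.5 and 20.02 CPM in SP MAT2Ai libraries, against 41.1, 49.3, 39.9, 24.9 and 48.6 CPM in SP placebo libraries. WT libraries had it at 33.9, 16.8, 28.6, 33.2 and 30.8 CPM with MAT2Ai, against 30.0, 44.5, 56.2, 54.1 and 51.4 CPM with placebo. A single placebo library in each genotype reached the MAT2Ai range, and the averaged log2 fold change was -0.80 ± 0.16 (adjusted p = 0.0361). *Nr1d1* overlaps *Thra* on the opposite strand, and the strand setting of the counting is not given in the sources used here. A further 4 clock genes were looked up after the values were seen, and none passed the threshold. *Arntl*, which REV-ERBα represses, changed by 1.02 ± 0.31 (log2) (adjusted p = 0.188) and *Cry1* one of 0.66 ± 0.17 (adjusted p = 0.117), against -0.33 ± 0.13 for *Dbp* (adjusted p = 0.257) and -0.20 ± 0.09 for *Nr1d2* (adjusted p = 0.326). The hour at which tissue was taken is not given in the sources used here.

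*Met*, the receptor of hepatocyte growth factor, was at 247, 190, 199.6, 196 and 231 CPM in SP MAT2Ai libraries, against 239, 277, 283, 287 and 290.4 CPM in SP placebo libraries. In the WT groups it was at 176.5, 126, 221, 183 and 179 CPM with MAT2Ai, against 211, 212, 242, 274 and 310.3 CPM with placebo. In each genotype 1 MAT2Ai library reached the placebo range, and the log2 fold change was -0.43 ± 0.09 (adjusted p = 0.0423). *B3galnt1*, which makes the globoside sugar chain, was at 5.14 to 8.70 CPM with MAT2Ai, against 8.36 to 13.1 CPM with placebo (-0.55 ± 0.10, adjusted p = 0.0138). *Stbd1*, which ties glycogen to membranes, was at 17.0 to 30.6 CPM with MAT2Ai, against 24.6 to 37.6 CPM with placebo (-0.42 ± 0.08, adjusted p = 0.0181). *Tmem178b*, a membrane protein, was at 0.626 to 1.33 CPM with MAT2Ai, against 1.12 to 1.91 CPM with placebo (-0.71 ± 0.13, adjusted p = 0.0232). Each of *B3galnt1*, *Stbd1* and *Tmem178b* had no overlap within either genotype. The last, the immunoglobulin segment *Igkv14-100*, was at 0.0178 to 1.13 CPM with MAT2Ai, against 0.299 to 2.22 CPM with placebo (-2.43 ± 0.50, adjusted p = 0.0423). Such segments have near copies that share reads, so its count is uncertain.

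**Figure D2:**
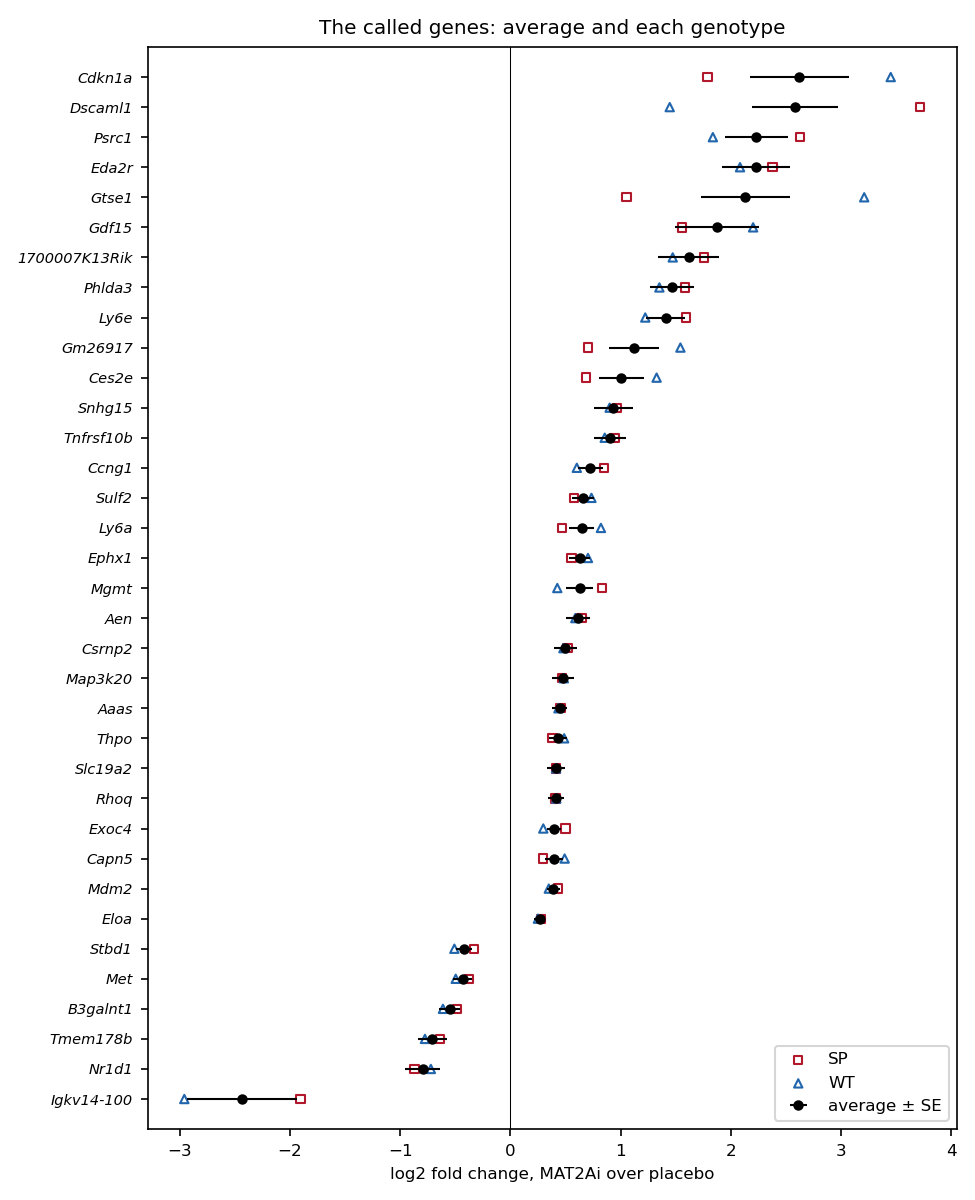
Averaged log2 fold change, MAT2Ai over placebo (black, with SE), and the values in SP (red squares) and WT (blue triangles) for 35 of the 36 called genes. All 35 have the same sign in SP and in WT, which picking genes by the average favors. The genotypes lie farthest apart for *Dscaml1* (3.72 in SP, 1.45 in WT) and *Gtse1* (1.05 in SP, 3.21 in WT).

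The genotypes were then compared for these genes. A gene was taken to respond alike when it was called in the average, had the same sign and an unadjusted p under 0.05 in each genotype, and had an unadjusted p of at least 0.05 for the difference between genotypes. Of the 36 genes, 33 met this, namely 27 that rose (0.167% of the tested genes) and 6 that fell (0.0371%). This count is a description and not a test of likeness. The genes were picked by the average of the 2 effects, which favors a shared sign, and all the values come from the same model. Among the exceptions were *Dscaml1*, whose effect was larger in SP (difference of log2 fold changes, SP minus WT, 2.27, 95% interval 0.62 to 3.92), and *Gtse1* (-2.16, -3.83 to -0.49), whose effect was larger in WT. These differences did not pass after adjustment in edgeR's quasi-likelihood test (adjusted p = 0.842 for each). Across all tested genes the difference between genotypes passed for none, with 903 genes at an unadjusted p under 0.05 (5.59%), 1 gene called by DESeq2 and 1 by the likelihood ratio test.

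A difference that does not pass is not evidence of equal effects, and the intervals show how close the 2 genotypes were bound to be. They were narrower for some genes than for others. The width did not simply follow abundance, since *Aaas* and *Cdkn1a* had a similar mean log2 CPM (3.44 and 3.37). For *Mdm2* the SP effect minus the WT effect was 0.08 (95% interval -0.17 to 0.34), for *Aaas* 0.02 (-0.27 to 0.31), for *Ephx1* -0.15 (-0.54 to 0.24) and for *Ccng1* 0.25 (-0.24 to 0.73). They were wide for others: *Cdkn1a* -1.66 (-3.47 to 0.14), *Gdf15* -0.65 (-2.20 to 0.90) and *Eda2r* 0.30 (-0.96 to 1.55). A severalfold difference between genotypes in these 3 genes lies within the intervals.

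**Figure D3:**
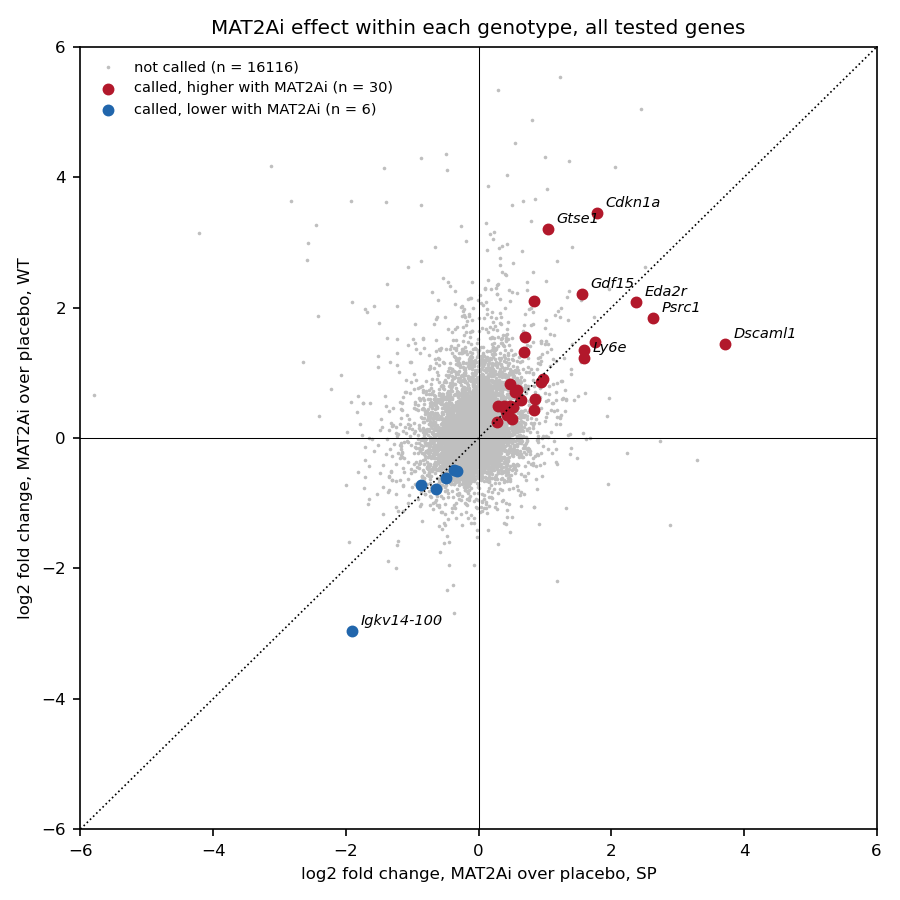
Log2 fold change, MAT2Ai over placebo, in SP (horizontal axis) against WT (vertical axis) for each tested gene, with the 30 called genes that rose in red, the 6 that fell in blue, the others in gray and the line of equality dotted. The called genes lie where both values are positive or both are negative, some of them near the origin, such as *Eloa* (0.28 in SP, 0.25 in WT). A further 4 uncalled genes lie outside the axes.

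The genotypes share no animals, so the 2 within-genotype effects are separate measurements. Over all 16152 genes 50.6% were positive in SP and 52.6% in WT, 59.5% had the same sign in both, and the SP effect exceeded the WT effect in 47.2%. Of the 956 genes with an unadjusted p under 0.05 in SP, 206 (21.5%) also had one in WT, against 15.7% of all tested genes. These 206 are 8.1% of the 2540 genes with one in WT, against 5.92% of all tested genes with one in SP. These shares are for all libraries, and without WT MAT2Ai 2 the WT number was 1447. The sign was the same for 179 of the 206, with 120 higher and 59 lower. At p under 0.001 there were 33 genes in SP and 104 in WT, and the 10 they had in common were all higher with MAT2Ai. Separation of the raw values was counted as well, in the same libraries. For 18 genes (0.111% of those tested) all 5 MAT2Ai libraries were above all 5 placebo libraries in both genotypes, and for 4 genes (0.0248%) they were below. Of the 18 genes 13 were called, and of the 4 genes 3 were called. In 13 genes (0.0805%) all 10 MAT2Ai libraries were above all 10 placebo libraries, in 12 of them with a call, and the exception was the carnitine transporter gene *Slc22a21*.

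The highest and lowest values of the 30 risen genes fell on some libraries more than on others. SP MAT2Ai 1 was the highest of its group for 18 of the 30 genes and SP MAT2Ai 5 the lowest for 19. In WT, MAT2Ai 2 was the highest of its group for 14 genes, MAT2Ai 1 for 11, and MAT2Ai 4 was the lowest for 18. Taken over all 20 libraries, WT MAT2Ai 2 was highest for 11 of the 30 genes and SP MAT2Ai 1 for 9. Placebo libraries were uneven as well. SP placebo 1 was the lowest of its group for 15 of the 30 genes and WT placebo 3 for 11, and SP placebo 5 and WT placebo 2 were each the highest for 11.

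The p53 lists as a whole were read against all tested genes, whose median averaged log2 fold change was 0.007 and of which 52.2% were positive. Of 18 tested arrest genes 4 were called, all higher, 17 were positive and the median was 0.54. Of the 19 death and survival genes 4 were called, all higher, 16 were positive and the median was 0.28, and of the 19 feedback and repair genes 3 were called, all higher, 14 were positive and the median was 0.08. The share of all tested genes called higher was 0.186%. Next in rank, but not called, were *Ier5* (0.64 ± 0.14, adjusted p = 0.0614), the p53-induced zinc finger gene *Zmat3* (0.41 ± 0.10, adjusted p = 0.1), the pore-forming death gene *Bax* (0.28 ± 0.07, adjusted p = 0.128), *Ckap2* (0.97 ± 0.27, adjusted p = 0.155), *Trim24*, a ligase for p53 (0.29 ± 0.07, adjusted p = 0.101), and the translesion polymerase gene *Polk* (0.27 ± 0.07, adjusted p = 0.113). The mean level of the arrest genes, as a deviation from the mean of all libraries in log2 CPM, lay between 0.03 and 0.45 in SP MAT2Ai, against -0.44 to -0.19 in SP placebo, and between 0.12 and 1.31 in WT MAT2Ai, against -0.41 to -0.23 in WT placebo. For the death and survival genes these ranges were -0.06 to 0.30 in SP MAT2Ai against -0.43 to -0.16 in SP placebo, and 0.10 to 0.64 in WT MAT2Ai against -0.25 to 0.05 in WT placebo. These 2 lists did not overlap between treatments in either genotype. Their means include the members called in these same libraries, and the lists were chosen with earlier results of these data known. The separation is therefore not support apart from those calls. The feedback and repair genes did overlap, at -0.038 to 0.151 in SP MAT2Ai against -0.126 to -0.035 in SP placebo, and at -0.079 to 0.167 in WT MAT2Ai against -0.126 to -0.001 in WT placebo. Without SP placebo 1 and 2 the numbers called on the 3 lists were 1, 2 and 0, and the medians were 0.55, 0.34 and 0.08. With WT MAT2Ai 2 left out, the numbers called were 5, 4 and 3, and the medians were 0.40, 0.16 and 0.10.

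The methionine cycle itself changed little in RNA. *Mat2a*, the target of the inhibitor, was at 317 to 485 CPM in SP MAT2Ai libraries (median 368), against 265 to 474 CPM in SP placebo libraries (median 363). Among WT mice it was at 392 to 525 CPM with MAT2Ai (median 494), against 314 to 452 CPM with placebo (median 345). The groups overlapped in both genotypes, and the averaged log2 fold change was 0.23 ± 0.10 (adjusted p = 0.301). The inhibitor acts on the enzyme, so the RNA level does not show how far it was inhibited. None of the 18 tested genes of the cycle was called, 6 were positive and the median was -0.04. Values in the list included -0.15 ± 0.06 for *Mtr*, methionine synthase (adjusted p = 0.257), and -0.12 ± 0.05 for *Mat2b*, the regulatory subunit of MAT2A (adjusted p = 0.292). Of 15 genes of the H3K27 methyltransferase PRC2 and its partners none was called and the median was 0.06, with 0.22 ± 0.09 for the catalytic subunit *Ezh2* (adjusted p = 0.276), 0.65 ± 0.20 for *Epop* (adjusted p = 0.188) and 0.00 ± 0.04 for *Aebp2*.

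The study was concerned with NF-κB and AP-1. It gave the inhibitor to both genotypes, and described its effect on inflammation mainly in SP mice. Beside RNA sequencing it used p65 staining of nuclei and RT-qPCR of cytokines in both genotypes. It also reported kidney function, histology, SAM levels and profiles of H3K27 trimethylation with the inhibitor, which RNA counts do not measure. The average over genotypes is another comparison, and in it no gene of either list was called at an adjusted p of 0.05. Among 24 tested AP-1 and immediate early genes 20 were positive, 16 at an unadjusted p under 0.05, and the median was 0.65. With WT MAT2Ai 2 left out the median was 0.47 and 1 gene, *Ier5*, was called (0.50, adjusted p = 0.0347), as it was without WT MAT2Ai 2, 3 and 4 (0.58, adjusted p = 0.0154), where the median was 0.36. *Fos* was at 2.01 to 20.1 CPM in SP MAT2Ai libraries (median 12.3), against 0.583 to 1.56 CPM in SP placebo libraries (median 0.937), without overlap. The level in WT was 0.648 to 8.68 CPM with MAT2Ai (median 2.57), against 0.455 to 8.63 CPM with placebo (median 3.88), with nearly complete overlap. Its averaged log2 fold change of 1.48 (adjusted p = 0.221) was the mean of 3.297 in SP and -0.33 in WT, which differ in sign. *Jun* had an averaged value of 0.78 ± 0.23 (adjusted p = 0.185), *Junb* 0.76 (adjusted p = 0.257), *Maff* 1.18 ± 0.28 (adjusted p = 0.101), *Btg2* 1.23 ± 0.32 (adjusted p = 0.131), *Ier3* 0.42 ± 0.12 (adjusted p = 0.159) and *Ier2* 0.67 ± 0.21 (adjusted p = 0.206). The values of *Maff*, *Btg2* and *Ier3* were 1.02, 1.09 and 0.41 in SP and 1.33, 1.37 and 0.44 in WT.

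Of 20 NF-κB components and regulators 17 were positive, and the median was 0.10. *Nfkb1* had an averaged log2 fold change of 0.09, *Rela* of 0.21 (adjusted p = 0.339), *Nfkb2* of 0.34 ± 0.14 (adjusted p = 0.271), *Ikbkb* of 0.18 ± 0.05 (adjusted p = 0.175) and the atypical inhibitor gene *Nfkbiz* of 0.93 ± 0.25 (adjusted p = 0.155). *Rela* was at 29.1 to 35.97 CPM in SP MAT2Ai libraries, against 27.01 to 31.5 CPM in SP placebo libraries, and at 27.4 to 56.9 CPM in WT MAT2Ai libraries, against 28.3 to 29.8 CPM in WT placebo libraries. Of 23 listed cytokines, chemokines and adhesion molecules 16 could be tested. *Tnf* and *Il6*, which are among the cytokines of the study's RT-qPCR, were too scarce. All 16 tested genes had a positive value, 4 of them at an unadjusted p under 0.05, and none was called. *Cxcl1*, a neutrophil chemokine, had 1.83 ± 0.48 (adjusted p = 0.131), *Ptgs2*, cyclooxygenase 2, 0.92 ± 0.28 (adjusted p = 0.195), *Spp1*, osteopontin, 1.24 ± 0.41 (adjusted p = 0.217), *Icam1* 0.70 ± 0.24 (adjusted p = 0.228), *Il1b* 0.23 and *Ccl2* 0.17. *Spp1* was at 4572 CPM in WT MAT2Ai 2, against 250 to 576.5 CPM in the other WT MAT2Ai libraries. The median of the 16 was 0.46, and 0.23 without WT MAT2Ai 2.

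Injury and acute phase genes had larger medians in WT with all libraries, and the difference between genotypes passed for no gene after adjustment. Of 26 tubular injury genes only *Cdkn1a* was called, and the median of the list was 0.13 in SP and 0.97 in WT. *Havcr1*, which encodes KIM-1, was at 18.3 to 65.9 CPM in SP MAT2Ai libraries (median 24.4), against 13.7 to 42.3 CPM in SP placebo libraries (median 28.5). WT libraries had it at 20.7 to 1214 CPM with MAT2Ai (median 52.5), against 27.2 to 50.9 CPM with placebo (median 29.1). The value of 1214 CPM was in WT MAT2Ai 2, and the other WT MAT2Ai libraries reached at most 74.4 CPM. The averaged value was 1.64 (adjusted p = 0.233), with 0.21 in SP and 3.06 in WT. *Lcn2*, which encodes the iron-binding injury marker NGAL, was at 676 CPM in WT MAT2Ai 2. It was at 1.06 to 19.4 CPM in the other WT MAT2Ai libraries and at most 2.45 CPM in WT placebo. *Lcn2* averaged 3.71 ± 0.91 (adjusted p = 0.104), with 1.02 in SP and 6.40 in WT. *Krt20*, *Sox9* and *Krt18* averaged 3.38 ± 0.90, 2.54 ± 0.79 and 0.89 ± 0.28 (adjusted p = 0.136, 0.201 and 0.206). In WT MAT2Ai 2 they were at 58.7, 40.7 and 46.6 CPM, against at most 3.18, 1.54 and 18.7 CPM in the other WT MAT2Ai libraries. Without WT MAT2Ai 2 the median of the injury list was 0.20 in place of 0.56, with 0.12 in SP and 0.26 in WT, and without WT MAT2Ai 2, 3 and 4 it was 0.11, with 0.12 in SP and 0.10 in WT. *Fgb*, *Saa1* and *Saa2* did not have enough counts in enough libraries to be tested. Of 11 tested fibrinogen and acute phase genes none was called. Their median was 1.70 with all libraries, with *Saa3* at 3.75 ± 0.91 (adjusted p = 0.101), *Serpina3n* at 3.10 ± 0.76 (adjusted p = 0.104), *Fga* at 2.84 ± 0.71 (adjusted p = 0.114) and *Fgg* at 3.29 ± 0.92 (adjusted p = 0.159), and without WT MAT2Ai 2 it was 0.68, with 0.72 in SP and 0.64 in WT. With WT MAT2Ai 2, 3 and 4 left out the acute phase medians were 0.76 in SP and -0.13 in WT.

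The lists of NRF2 targets and of the integrated stress response were mostly positive, with few calls. They are not apart from p53, since the called *Ephx1* also stands on the p53 feedback and repair list. Of 22 NRF2 targets and metallothioneins all 22 were positive, 14 at an unadjusted p under 0.05, the median was 0.24 and *Ephx1* alone was called. *Mt2* and *Mt1*, which bind metals, averaged 1.45 ± 0.43 and 1.12 ± 0.35 (adjusted p = 0.188 and 0.201), with 0.35 and 0.32 in SP and 2.54 and 1.92 in WT. *Mt2* was at 705 CPM in WT MAT2Ai 2, against 42.4 to 98.8 CPM in the other WT MAT2Ai libraries, and *Mt1* at 877 CPM, against 84.5 to 162 CPM, and without that library the averages were 0.61 and 0.47 (adjusted p = 0.272 and 0.23), while *Pgd* averaged 0.29 ± 0.09 (adjusted p = 0.193) and the quinone reductase gene *Nqo1* 0.29 ± 0.10 (adjusted p = 0.247), with 0.28 in SP and 0.30 in WT for *Nqo1*. Of 19 genes of the integrated stress response 18 were positive and *Gdf15* was called, with a median of 0.11 in SP and 0.92 in WT. *Cebpb*, *Ppp1r15a*, *Psat1* and *Atf3* averaged 0.94 ± 0.29, 0.38 ± 0.12, 0.94 ± 0.31 and 0.77 ± 0.29, with adjusted p-values between 0.191 and 0.257. Without WT MAT2Ai 2 the median of this list was 0.27 in place of 0.45. Chaperones of the endoplasmic reticulum went the other way, with 2 of 18 positive, none called and a median of -0.12, among them *Dnajc3* (-0.13 ± 0.04, adjusted p = 0.221) and *Sel1l* (-0.23 ± 0.09, adjusted p = 0.281), against *Xbp1* at 0.36 ± 0.15 (adjusted p = 0.284).

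**Figure D4:**
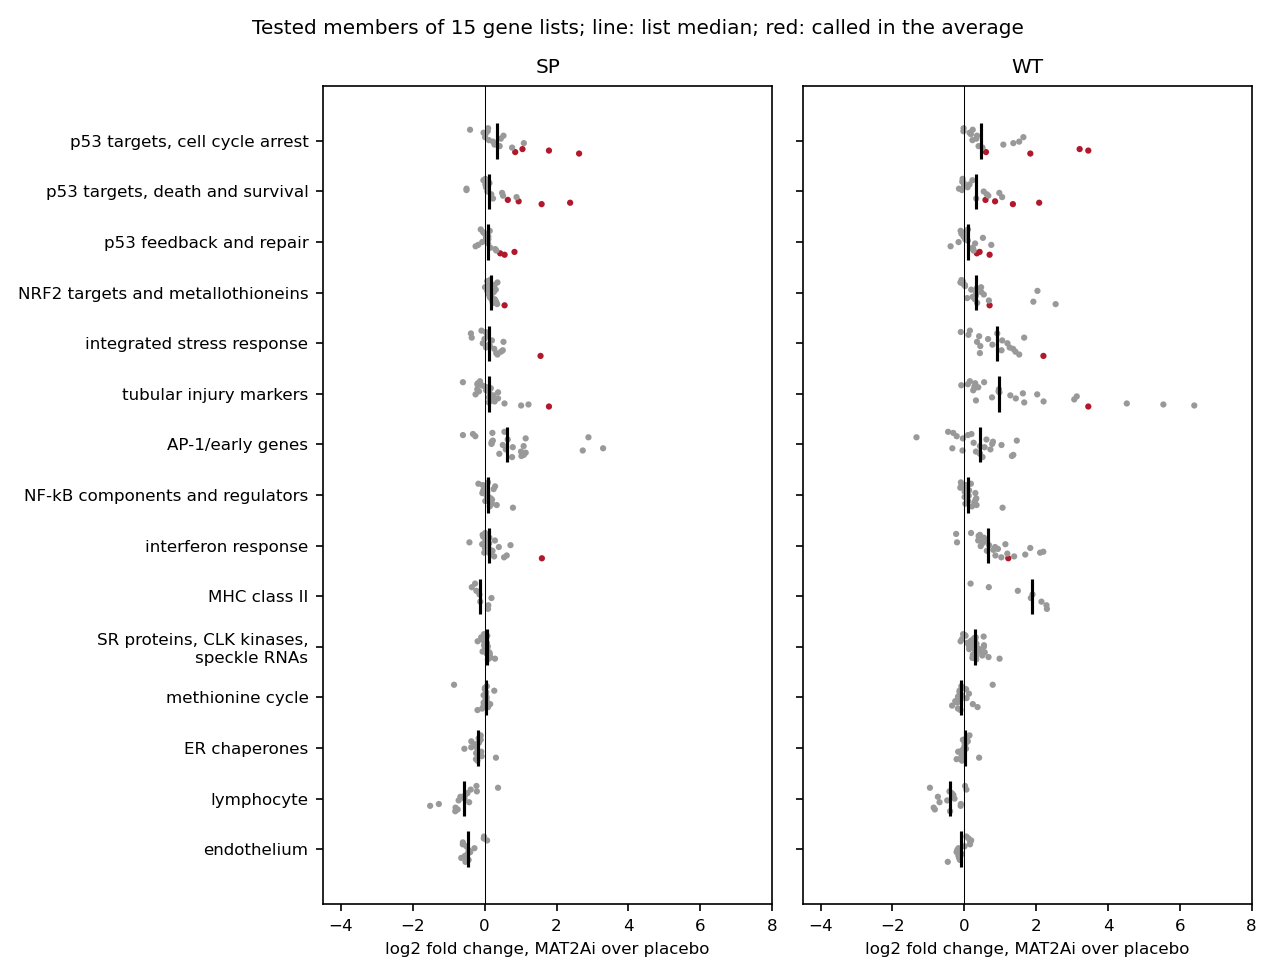
Log2 fold change, MAT2Ai over placebo, of each tested member of 15 gene lists in SP (left) and WT (right), with the list median as a black line and members called in the average in red. The p53 lists have red points on the right of both panels, while the medians of the injury genes (0.13 in SP, 0.97 in WT) and of MHC class II genes (-0.13 in SP, 1.88 in WT) differ between panels.

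Interferon and MHC class II genes rested on another library. The median of the 28 interferon genes was 0.45, and 0.14 without WT MAT2Ai 5, with *Gbp7* at 0.79 ± 0.26 (adjusted p = 0.219) and *Tap1* at 0.83 ± 0.30 (adjusted p = 0.249) when all libraries were used. Of 8 MHC class II genes 7 were positive and none was called, with a median of -0.13 in SP and 1.88 in WT. *H2-DMb1* was at 1.29 to 3.90 CPM in SP MAT2Ai libraries, against 1.88 to 3.07 CPM in SP placebo libraries, and at 2.64 to 50.1 CPM in WT MAT2Ai libraries, against 1.65 to 3.69 CPM in WT placebo libraries. *Cd74* averaged 0.88 ± 0.41 (adjusted p = 0.332) and *H2-Ab1* 1.01 ± 0.46 (adjusted p = 0.323). Without WT MAT2Ai 5 the median of the 8 genes was -0.01 and 4 were positive. *Ly6a*, which interferon also induces, was highest of all 20 libraries in WT MAT2Ai 5, at 1162 CPM. *Ly6e* was at 226 CPM there, below 288 CPM in WT MAT2Ai 1 and 421 CPM in SP MAT2Ai 1.

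RNAs of splicing regulators and of nuclear speckles, among them the noncoding RNA *Malat1*, were positive in 30 of 33 cases, 18 at an unadjusted p under 0.05, with none called and a median of 0.18. *Rsrc2* came nearest, at 0.21 ± 0.04 (adjusted p = 0.0529), followed by *Malat1* at 0.63 ± 0.19 (adjusted p = 0.18), *Srrm1* at 0.18 ± 0.06 (adjusted p = 0.19) and *Srsf5* at 0.41 ± 0.15 (adjusted p = 0.254). *Malat1* was at 605.5 to 1393 CPM in SP MAT2Ai libraries (median 710.2), against 440 to 1019 CPM in SP placebo libraries (median 679.5), and at 767 to 1679 CPM in WT MAT2Ai libraries (median 1109), against 476 to 821 CPM in WT placebo libraries (median 528). The medians of the list were 0.06 in SP and 0.30 in WT.

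Markers of other cell types were read beside the called genes. In whole tissue, fewer cells of a type and less RNA per cell cannot be told apart. All 15 tested lymphocyte genes had a negative value and the median was -0.56, with none called (*Trac* -0.61 ± 0.23, adjusted p = 0.259, and *Cd3d* -0.79 ± 0.30, adjusted p = 0.261). The 4 defining lymphocyte markers summed to 2.85 to 16.3 CPM in MAT2Ai libraries (median 5.93), against 6.35 to 21.1 CPM in placebo libraries (median 7.47), so they were scarce in both. Of 14 endothelial genes 3 were positive, none was called and the median was -0.26, with -0.50 ± 0.20 for *Kdr* (adjusted p = 0.265), -0.28 ± 0.12 for *Flt1* (adjusted p = 0.306) and -0.28 ± 0.13 for *Pecam1* (adjusted p = 0.333). Of 17 macrophage and dendritic cell genes 5 were positive, none was called and the median was -0.14 (-0.36 in SP, 0.10 in WT). The 4 macrophage markers summed to 9.17 to 30.4 CPM with MAT2Ai (median 20.4), against 11.9 to 30.6 CPM with placebo (median 20.2). Of 8 erythroid genes 1 was positive, 5 were lower at an unadjusted p under 0.05, none was called and the median was -0.53. The proximal tubule lists had medians of -0.11 and -0.10, with no member called, and *Slc5a2* itself averaged -0.72 ± 0.28 (adjusted p = 0.264), -1.16 in SP and -0.28 in WT. Without the libraries labelled SP placebo 1 and 2 the average for *Slc5a2* was -0.06 (adjusted p = 0.89). The part of these markers in the called genes was not tested.

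How many genes were called depended on which libraries were used. Without SP placebo 1 and 2, 4 of the 36 genes were still called, *Ly6e* (1.37), *Psrc1* (2.46), *Phlda3* (1.46) and *Eda2r* (2.09), with adjusted p-values of 0.0273, 0.0089, 0.0273 and 0.0382. All 36 had an unadjusted p under 0.001 in that fit, 19 had an adjusted p under 0.1, and their log2 fold changes were between 0.872 and 1.10 times those with all libraries. *Mdm2*, for example, was at 0.40 (adjusted p = 0.0558), *Ccng1* at 0.70 (adjusted p = 0.0646) and *Nr1d1* at -0.74 (adjusted p = 0.189). Without WT MAT2Ai 2, 27 of the 36 were called, and the effects were 0.635 to 1.06 times the main ones. Without WT MAT2Ai 2, 3 and 4, 32 of the 36 were called among 88 genes in all, with effects 0.496 to 1.27 times the main ones. Without the 3 libraries SP placebo 1 and 2 and WT MAT2Ai 2 together, a choice made after seeing the data, 16 of the 36 were called, among them *Cdkn1a* at 1.84 (adjusted p = 0.0033), *Gdf15* at 1.11 (adjusted p = 0.0201) and *Mdm2* at 0.37 (adjusted p = 0.0408). When each of the 20 libraries was left out in turn, 19 of the 36 genes were called in all 20 fits. The count of genes higher was 18 without any 1 of SP MAT2Ai 2, SP placebo 3, SP placebo 4 and WT placebo 4, and 55 without WT MAT2Ai 4. The count of genes lower was 2 without SP MAT2Ai 2, 3 without any 1 of SP MAT2Ai 5 and SP placebo 1, 2 and 3, and 22 without WT MAT2Ai 4. No gene of the 36 changed sign in any fit.

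**Figure D5:**
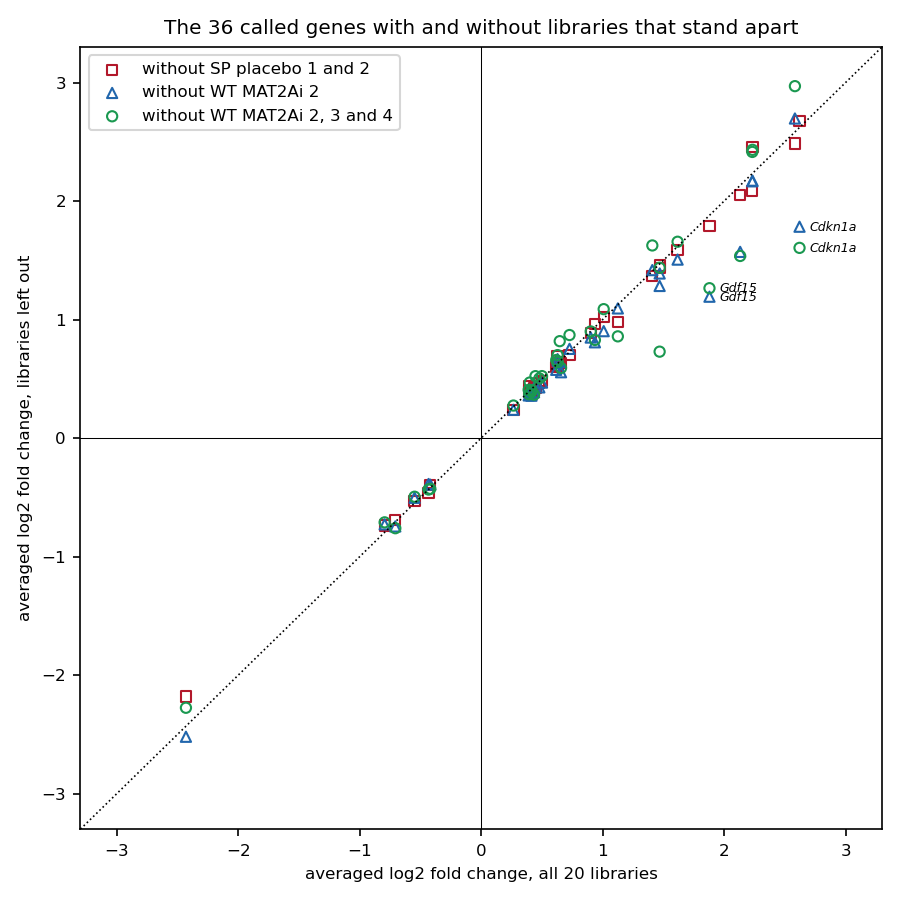
Averaged log2 fold change, MAT2Ai over placebo, of the 36 called genes with all 20 libraries (horizontal axis) against the value with libraries left out (vertical axis), without SP placebo 1 and 2 (red squares), without WT MAT2Ai 2 (blue triangles) and without WT MAT2Ai 2, 3 and 4 (green circles), and the line of equality dotted. The red squares lie near the line (0.872 to 1.10 times the main value), while *Cdkn1a* and *Gdf15* fall below it when WT libraries are left out.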

How the data were processed

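Kidney cortex poly(A) RNA of 20 mice was sequenced by the authors, who trimmed the reads, aligned them to mm10 with STAR and counted them per Ensembl gene with htseq-count. The deposited values are raw counts per gene, whole numbers with no normalization, and groups follow the sample titles. Rows that name no gene were left out (reads with no feature 3.87% to 5.50%, ambiguous reads 0.702% to 0.794%), and reads that map to several places are not in gene counts, so genes with near copies are uncertain. Mitochondrially encoded genes took 12.4% to 22.2% of counts.

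Genes were filtered with filterByExpr, scaled by TMM and fitted over the 4 groups with edgeR 4.0.16 in R 4.3.3 (quasi-likelihood test, Benjamini-Hochberg adjustment over all tested genes, threshold 0.05). Levels are CPM on TMM-scaled library sizes. On simulated counts for the averaged contrast, with 200 of 16152 genes changed, this test recovered 73.1% at 1.5-fold, 74.6% at 2-fold and 97% at 4-fold, with 2.98% of calls false. The false share was 2.42% for limma-voom, 10.9% for the likelihood ratio test and 11.5% for DESeq2. The simulation gave both genotypes the same change and set no library apart, so it does not cover the outlying or doubtful libraries of these data. Alternatives were other scalings and filters, DESeq2 1.42.0, limma 3.58.1 (voom), a replicate block and left-out libraries.

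The rule for naming genes took called genes whose mean log2 CPM was 0 or more, left predicted models aside, and picked 12 by size of rise, 10 by size of fall and then 8 by p-value, with genes the study concerns and up to 6 members of each gene list by p-value. All other called genes but 1, which is not reported here, were then named too, and the clock genes and *Slc22a21* were added after their values were seen. The members and lists were chosen with earlier results of these data known. Promoter sequences are from RefSeq (GRCm38.p6).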

Additional observations from a re-analysis of the deposited data

Results flagged for a closer look

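In 140 checks of a called gene in a group of 5 libraries, 8 held 1 library far from the others by Dixon's test, which chance does in about 1 in 20 groups. Among MAT2Ai libraries, *Gdf15* was at 85.0 CPM in WT MAT2Ai 2, against 8.35 to 11.6 CPM in the other 4 libraries of its group, and *Nr1d1* was at 16.8 CPM there, against 28.6 to 33.9 CPM. *Ly6a* was at 902 CPM in SP MAT2Ai 1, against 590.3 to 652 CPM in the others, and *Gtse1* was at 0.243 CPM in SP MAT2Ai 5, against 0.555 to 0.767 CPM. Among placebo libraries, *Ccng1* was at 167 CPM in SP placebo 1, against 196 to 206 CPM, and *Met* was at 239 CPM there, against 277 to 290.4 CPM. In WT placebo 2, *Mgmt* was at 8.45 CPM, against 5.51 to 6.03 CPM, and *Map3k20* at 6.62 CPM, against 5.11 to 5.39 CPM.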

How the results depend on the processing

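Each of the 36 genes kept its direction in every one of the 34 alternatives in which it was tested. Other scalings, filters, the robust fit and the additive design gave 25 to 30 genes higher and 5 to 8 lower. DESeq2 called 130 higher and 57 lower, limma-voom 47 and 23, and the likelihood ratio test 114 and 41, of which 128, 62 and 93 were alike in both genotypes. These tests called 27, 17 and 20 genes in SP and 201, 2 and 178 in WT, and 1 gene differed between genotypes with DESeq2 and 1 with the likelihood ratio test. A minimum of 1 CPM in 10 libraries left 0 genes called in SP. Without SP placebo 1 and 2, 4 genes were higher, 0 lower, 4 alike and 0 called in SP. Without WT MAT2Ai 2, 3 and 4, 63 were higher and 25 lower, 71 were alike, and 17 were called in SP and 63 in WT. Without SP placebo 1 and 2 and WT MAT2Ai 2, 18 were higher, 0 lower, 16 alike and 0 called in SP.

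Leaving out 1 library at a time gave 18 to 55 genes higher and 2 to 22 lower, 0 to 13 called in SP, 0 to 27 in WT and 19 to 65 alike. The highest count of genes higher, 55, came without WT MAT2Ai 4, and the fewest lower, 2, without SP MAT2Ai 2. The cause was not tested.

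The replicate numbers did not pair the libraries. Over 30 pairs of the same number the mean correlation was -0.02, 4 pairs were over 0.1, and 6 of 20 libraries matched best with their own number. With the replicate block 25 genes were higher and 5 lower, 28 of them among the 36.

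The only named genes that changed sign were 4 uncalled ones. *Aebp2* was at -0.0006 with RLE factors, -0.0024 with upper quartile factors, -0.0007 with DESeq2 and -0.0011 without SP placebo 1 and 2, and at -0.012 to 0.0209 when 1 library was left out. *Ccl2* ranged over -0.1426 to 0.2458 when 1 library was left out. *Fgg* was at -0.0636 without WT MAT2Ai 2, 3 and 4. *H2-Ab1* was at -0.0318 without WT MAT2Ai 5, and at up to 1.1426 when another library was left out.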
